A study of Homo sapiens with 6 samples.

Results

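The genes described here are 10 immediate early and AP-1 genes: the FOS family (FOS, FOSB, FOSL1 and FOSL2), the JUN family (JUN, JUNB and JUND), ATF3, EGR1 and IER3. They were chosen by symbol through the Ensembl identifiers of the deposited table, and all 10 were found among its 19937 genes. The cells were U2OS, an established human osteosarcoma line, carrying a lentiviral pGIPZ hairpin construct and selected with puromycin for stable integration. The hairpin targeted squalene epoxidase (SQLE), an enzyme of cholesterol synthesis, in the shSQLE group (3 libraries) and was a scrambled sequence in the shControl group (3 libraries). Both groups thus carried the vector and the selection, in 1 cell line, and the comparison asks which transcripts differ between them. The paper made several SQLE hairpins and selected 1, and the sources used here do not say which. An effect of SQLE loss cannot be told apart here from another effect of that hairpin. Culture followed the guidelines of the cell bank, with no growth medium or serum named for these cells. The time between the last change of medium and RNA extraction, to which immediate early genes are sensitive, is not given in the sources used here. It is likewise not given whether replicates were cultured apart, so the SDs and p-values measure the spread among these libraries, which may be technical.

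AP-1 is a dimer of basic leucine zipper proteins. JUN proteins pair with themselves or with FOS proteins, and the dimers bind the TPA response element of growth, protease and cytokine genes. ATF3 belongs to the related ATF/CREB group, can pair with JUN proteins and often acts as a repressor, while EGR1 is a zinc finger factor and IER3 a short-lived protein linked to cell survival. Immediate early genes are transcribed without new protein synthesis within minutes of a growth factor or stress signal, many of them through MAP kinases and serum response factor, and their mRNAs are short-lived.

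The sites through which these factors act, and which several of the genes carry near their own start sites, are shown first, because these are the letters that AP-1, ATF/CREB, serum response and EGR factors read. RefSeq windows (GRCh38.p14) from 250 bases before to 50 bases after a start site were held for 8 of the 10 genes, in 9 windows because ATF3 had start sites at 2 places. FOSL1 and IER3 were without a window. They were searched on both strands for TGANTCA (the TPA response element), TGACNTCA (the cyclic AMP response element and its JUN-type variant), the CArG box (the core of the serum response element) and GCGNGGGCG (the EGR site). None of these motifs contains another. Each match is printed with its flanks as 30 bases, 5′ to 3′ on the strand of the gene, with the motif in capitals.
JUN, chr1:58784096-58784125, minus strand: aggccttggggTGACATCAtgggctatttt
ATF3, chr1:212565273-212565302, plus strand: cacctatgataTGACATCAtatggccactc
JUND, chr19:18281804-18281833, minus strand: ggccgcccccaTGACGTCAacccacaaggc
EGR1, chr5:138465364-138465393, plus strand: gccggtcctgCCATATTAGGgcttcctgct
EGR1, chr5:138465386-138465415, plus strand: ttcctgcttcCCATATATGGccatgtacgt
EGR1, chr5:138465271-138465300, plus strand: tgggatgcggGCGCGGGCGcgggccctagg
FOSL2, chr2:28392851-28392880, plus strand: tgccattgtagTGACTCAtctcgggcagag
JUN and ATF3 held the same 8 letters, from base -67 in JUN and from base -123 in ATF3, counted from the start site of that window. The other ATF3 window held none of the 4 motifs. JUND held the form with G at its centre, from base -200. The CArG boxes of EGR1 began at bases -105 and -83. The FOSL2 match lay just inside the transcript, from base 5. Of all 35116 RefSeq windows of this length, 7.71% held TGANTCA, 7.72% TGACNTCA, 1.29% a CArG box and 9.43% GCGNGGGCG. The windows of FOS, FOSB and JUNB held none of the 4 motifs in these letters. A match is a run of letters, not a site shown to be bound in these cells.

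Counts on genes ranged from 12212378 to 14393292 per library. SQLE itself fell to 12.7% of its level in shControl (log2 fold change -2.98, standard error 0.17, edgeR adjusted p = 0.000299). On the first principal component of log2 CPM, shControl replicate 1 lay at -9.997, apart from shControl replicates 2 and 3 (30.3 and 34.2). That value was within the range of the shSQLE libraries (-26.8 to -8.54). A look at the next component, however, set this library far from both groups. Its score there was -43.7, against -0.425 and 3.61 for shControl replicates 2 and 3 and 4.93 to 25.0 for the shSQLE libraries. The deviation of a gene in shControl replicate 1 from its mean over the libraries rose with the GC content of its canonical transcript (Pearson's r = 0.651 across 12450 genes, which are not independent), and this library touches several results below. Of 10 osteoblast markers, RUNX2 had 146 to 245 counts in every library and COL1A1 103 to 184, whereas SP7 and IBSP were at 0 and ALPL reached at most 2. COL1A1 was lower in every shSQLE library (103 to 106 counts) than in any control (147 to 184). Of 5 blood cell markers PTPRC and CD3E were at 0 in all 6 libraries and CD14 reached 6, and of 5 epithelial markers CDH1 reached 2 and the keratins at most 1. EPCAM had 46 to 55 counts in shControl and 57 to 76 in shSQLE. Of 5 endothelial markers CLDN5 was at 0 and PECAM1 had 9 to 15 counts in shControl and 2 to 6 in shSQLE. The part of these marker differences in the results was not tested. In bulk RNA, a lower level in each cell cannot be told apart from a smaller share of cells that express the gene.

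All 10 genes passed the filter on low counts and were tested. ATF3 and EGR1 fell in shSQLE and JUN rose, and the other 7 genes were not past the adjusted p of 0.05. Thus 2 of 10 genes were called lower, where 2.84% of the 12450 genes tested were, and 1 of 10 higher, where 0.369% were (3.21% in either direction). At an unadjusted p under 0.05 the counts were 3 lower and 1 higher, against 9.89% and 4.83% of all genes tested (14.7% together). Among the 10, shControl and shSQLE ranges were apart for 6 genes, 5 lower (12.1% of all genes tested) and 1 higher (10.0%), against 22.1% in either direction. The median log2 fold change was -0.36 over the 10 genes and -0.01 over all genes tested. ATF3 was called in each of the 6 fits without 1 library, EGR1 in the 3 that left out a shControl library, and JUN only in that without shControl replicate 1. Without shControl replicate 1, 4 genes were called lower (ATF3, EGR1, JUNB and FOSL2) and 3 higher (JUN, FOSL1 and IER3), in a fit that called 18.3% of all genes tested lower and 15.6% higher (33.9% together). DESeq2 called 3 lower and 1 higher, where it called 4.01% and 1.14% of its genes (5.15% together). With GC content and length taken out, 4 were called lower and 1 higher, against 8.68% and 12.1% of all genes tested (20.8% together). With the replicate number as a block, 2 were called lower and 0 higher (edgeR, with JUN at an adjusted p of 0.0725), against 2.91% and 0.273% (3.18% together).

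**Figure D1:**
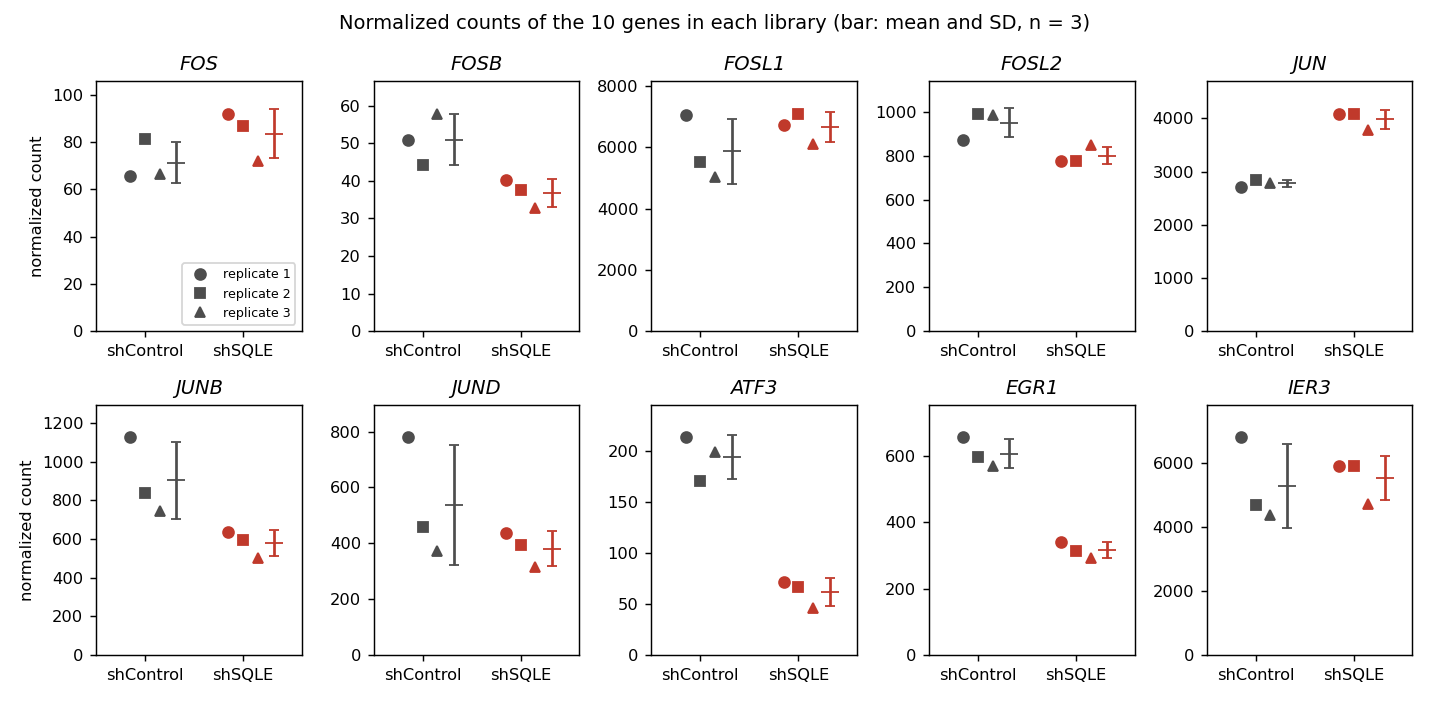
Normalized counts of each gene (vertical axis, from 0) in the 3 shControl libraries (grey) and the 3 shSQLE libraries (red), with the replicate number as the marker shape and the mean and SD (n = 3) beside the points. ATF3, EGR1, JUNB, FOSB and FOSL2 lay lower in every shSQLE library and JUN higher. For ATF3, EGR1, JUNB, JUND, FOSL1 and IER3 shControl replicate 1 lay above the other controls.

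ATF3 showed the largest change of the 10 genes. Its normalized counts (counts at the mean effective library size) were 214, 171 and 199 in the controls, in replicate order as throughout, and 71.5, 67.0 and 46.2 after SQLE silencing. Every shSQLE library lay far below every shControl library. The mean fell from 195 ± 21.7 to 61.6 ± 13.5 (SD, n = 3 each), or to 31.6% of shControl, with a log2 fold change of -1.65 (standard error 0.20, 95% interval -2.12 to -1.19, edgeR adjusted p = 0.00504). The gene (ENSG00000162772) lies on the plus strand of chromosome 1, from 212565334 to 212620777, and overlaps no other annotated gene. Leaving out any 1 library gave log2 fold changes from -1.77 to -1.47 and an adjusted p of at most 0.0334.

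EGR1 (ENSG00000120738, chromosome 5, 138465479 to 138469303) had normalized counts of 656, 596 and 569 in shControl and 341, 313 and 292 in shSQLE. The groups did not overlap, and the spread within each was small beside the gap between them. The mean fell from 607 ± 44.5 to 315 ± 24.5 (SD, n = 3 each), with a log2 fold change of -0.94 (standard error 0.13, 95% interval -1.24 to -0.65, edgeR adjusted p = 0.00791). Its adjusted p was 0.0545, 0.0681 and 0.0733 without shSQLE replicate 1, 2 and 3, with log2 fold changes of -1.002, -0.94 and -0.88.

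IER3 (chromosome 6, 30743199 to 30744548), the other immediate early gene, showed no called change. Its normalized counts were 6796, 4671 and 4371 in shControl and 5912, 5912 and 4720 in shSQLE, so that the shSQLE libraries lay within the range of the controls. The log2 fold change was 0.06 (95% interval -0.36 to 0.49, edgeR adjusted p = 0.924). It was 0.29 without shControl replicate 1 (adjusted p = 0.0415) and -0.02 and -0.04 without shControl replicate 2 or 3 (adjusted p = 0.997 and 0.974), so that its direction changed with the control library left out. IER3 overlaps noncoding genes on the opposite strand.

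In the JUN family, JUN was called higher, while JUNB and JUND had lower values in shSQLE that did not pass the adjusted p. JUN (ENSG00000177606, chromosome 1, 58776845 to 58784048, minus strand, 1 exon), the strongest activator of the family, had normalized counts of 2712, 2850 and 2778 in shControl and 4087, 4074 and 3779 in shSQLE. All 3 shSQLE libraries stood above all 3 controls, and the controls lay close together. The mean rose from 2780 ± 68.5 to 3980 ± 174 (SD, n = 3 each), which on the log2 scale is 0.52 (standard error 0.09, 95% interval 0.30 to 0.74, edgeR adjusted p = 0.0265). The size of the change held between 0.50 and 0.57 in every fit without 1 library, while the adjusted p was 0.128 and 0.0968 without shControl replicate 2 and 3, 0.192, 0.180 and 0.0975 without shSQLE replicate 1, 2 and 3, and 0.000563 without shControl replicate 1.

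JUNB, which pairs with FOS proteins but activates many AP-1 sites more weakly than JUN, had normalized counts of 1125, 837 and 744 in shControl and 637, 592 and 504 in shSQLE. The groups did not overlap, and shControl replicate 1 was the highest library. The log2 fold change was -0.64 (standard error 0.18, 95% interval -1.05 to -0.23), with an unadjusted p of 0.00707 and an edgeR adjusted p of 0.121. JUNB was past the threshold with DESeq2 (-0.63, adjusted p = 0.0411), with GC content and length taken out (-0.58, 0.00167) and without shControl replicate 1 (-0.45, 0.00786). JUNB overlaps HOOK2 on the opposite strand, and without a stated strand setting their reads may be mixed. HOOK2 had 195 ± 64.8 normalized counts in shControl and 176 ± 14.4 in shSQLE (SD, n = 3 each), below those of JUNB in each group.

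JUND, the family member that is expressed most evenly in resting cells, had normalized counts of 780, 457 and 372 in shControl and 436, 393 and 314 in shSQLE. The ranges overlapped, and shControl replicate 1 alone stood far above the rest. The log2 fold change of -0.49 (95% interval -1.12 to 0.14, edgeR adjusted p = 0.491) became -0.12 without shControl replicate 1 (adjusted p = 0.534), and -0.39 with GC content and length taken out, where it passed the threshold (adjusted p = 0.0182).

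The FOS family showed no called change (0 of 4 by edgeR, also at an unadjusted p under 0.05, and 0 by DESeq2). Over all genes tested, edgeR called 3.21%, 14.7% had an unadjusted p under 0.05, and DESeq2 called 5.15% of its genes. FOSL1, which encodes Fra-1 and is the most abundant of the family here, had normalized counts of 7054, 5529 and 5021 in shControl and 6737, 7097 and 6119 in shSQLE. The highest control lay within the shSQLE range. Its log2 fold change was 0.18 (95% interval -0.15 to 0.51, edgeR adjusted p = 0.659), and 0.34 without shControl replicate 1 (adjusted p = 0.0107). FOSL2, which encodes Fra-2, had 873, 991 and 984 normalized counts in shControl and 778, 777 and 847 in shSQLE. The shSQLE libraries were all lower, but the gap between the groups was narrower than the spread of the controls. The log2 fold change was -0.25 (95% interval -0.50 to 0.01, edgeR adjusted p = 0.367), -0.30 without shControl replicate 1 (adjusted p = 0.0175) and -0.13 with GC content and length taken out (adjusted p = 0.174). FOSL2 overlaps FOSL2-AS1 on the opposite strand and a noncoding gene on its own strand, whose reads may be mixed with its own.

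FOS and FOSB, the classical serum-induced members, were scarce in both groups. FOS had 65.8, 81.4 and 66.7 normalized counts in shControl and 92.0, 86.7 and 71.9 in shSQLE, in overlapping ranges (log2 fold change 0.23, 95% interval -0.19 to 0.65, edgeR adjusted p = 0.664). FOSB had 50.8, 44.3 and 57.9 in shControl and 40.2, 37.4 and 32.9 in shSQLE. These groups did not overlap, but the difference was not past the adjusted p (log2 fold change -0.47, 95% interval -0.94 to 0.01, edgeR adjusted p = 0.351). FOSB overlaps ERCC1 on the opposite strand, which at 1216 ± 381 normalized counts in shControl (SD, n = 3) was far more abundant and had a log2 fold change of 0.19 (edgeR adjusted p = 0.774). For each gene whose groups did not overlap, a two-sided exact permutation test over the libraries gave p = 0.1, the smallest that 3 against 3 libraries allow.

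**Figure D2:**
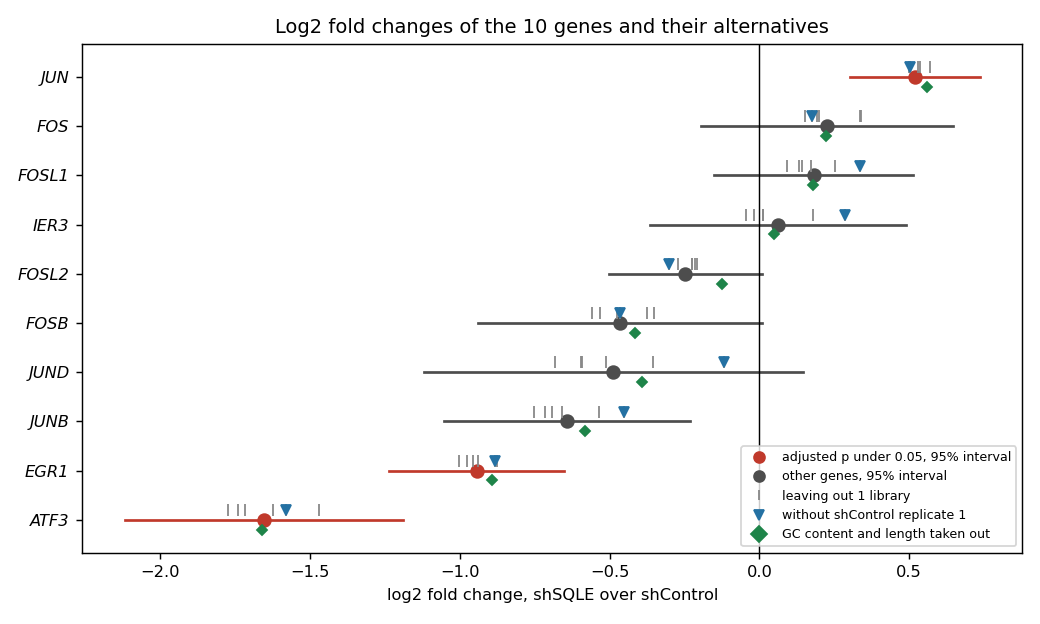
Log2 fold changes of shSQLE over shControl (horizontal axis) for each gene, with the 95% interval of the fit to all 6 libraries (red where the adjusted p was under 0.05), the fits without 1 library above it and the fit with GC content and length taken out below it. ATF3 (-1.65) and EGR1 (-0.94) stayed below 0 in every fit, whereas JUND moved from -0.49 to -0.12 without shControl replicate 1.

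Levels between genes were compared per length, as CPM divided by the length in kilobases of the canonical GENCODE v44 transcript (RPKM). In shControl, IER3 (317 ± 79.2) and FOSL1 (256 ± 46.1) were the most abundant of the 10, and their means differed by less than the SD of IER3 but more than that of FOSL1 (n = 3 each). JUN followed at 63.3 ± 1.56, JUNB at 36.6 ± 8.05 and JUND at 20.6 ± 8.27, EGR1 at 14.4 ± 1.05, FOSL2 at 10.5 ± 0.732, ATF3 at 7.44 ± 0.830, FOS at 2.51 ± 0.308 and FOSB at 1.00 ± 0.133. JUND and EGR1 did not differ beyond the SD of JUND. In shSQLE the order changed below JUND: FOSL2 (8.84 ± 0.446) stood above EGR1 (7.46 ± 0.579), and FOS (2.95 ± 0.367) above ATF3 (2.35 ± 0.515), each by more than the SD of either gene. FOSL1 made up 93.8% to 96.2% of the summed FOS family RPKM in every library. FOSL2 came next in each group.

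The composition of the JUN family differed between the groups. JUN made up 45.0%, 55.8% and 58.7% of the summed JUN, JUNB and JUND RPKM of the controls, and 68.6%, 70.3% and 72.6% of that of the shSQLE libraries. All shSQLE libraries lay above all controls, and shControl replicate 1 lay farthest from them. The RPKM ratio of JUN to JUNB was 1.35, 1.91 and 2.099 in shControl and 3.61, 3.86 and 4.22 in shSQLE. The sum of the family did not separate the groups, at 120 ± 15.2 RPKM in shControl and 129 ± 8.97 in shSQLE (SD, n = 3 each). These shares are descriptions with no test, since they combine the genes tested above.

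**Figure D3:**
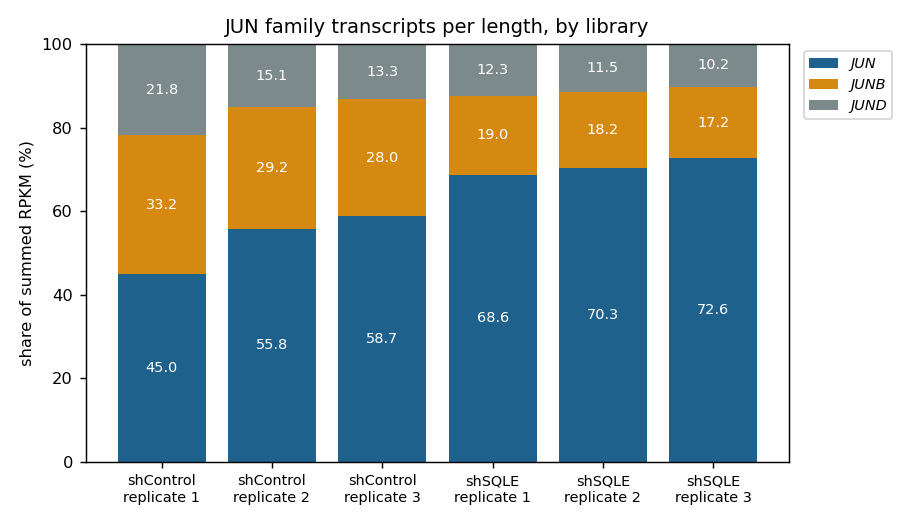
Share of JUN, JUNB and JUND in their summed RPKM (vertical axis, %) in each of the 6 libraries, as stacked bars with the shares printed inside. JUN took 45.0% to 58.7% in the shControl libraries and 68.6% to 72.6% in the shSQLE libraries.

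The 4 genes richest in GC were raised in shControl replicate 1. There JUND (69.9% GC) was 1.88 times its mean over shControl replicates 2 and 3, JUNB (64.9% GC) 1.42 times, FOSL1 (58.7%) 1.34 times and IER3 (58.1%) 1.503 times. FOSB, next in GC content (57.6%), was at 0.994 times, and ATF3, the poorest in GC (50.4%), at 1.16 times. EGR1 (55.3%) was at 1.13 times, JUN (56.1%) at 0.964 times, FOS (52.8%) at 0.889 times and FOSL2 (53.3%) at 0.884 times. In the fit with GC content and length taken out, the log2 fold changes of ATF3, EGR1 and JUN were -1.66, -0.89 and 0.56 (edgeR adjusted p = 0.000110, 7.96e-05 and 0.00139).

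**Figure D4:**
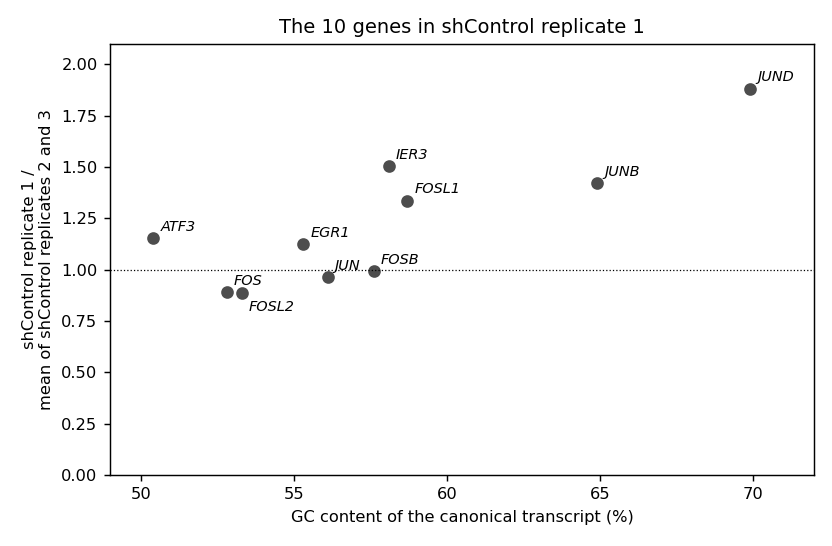
Ratio of the normalized count in shControl replicate 1 to the mean of shControl replicates 2 and 3 (vertical axis) against the GC content of the canonical transcript (horizontal axis, %), 1 point per gene. JUND (1.88) and IER3 (1.503) lay highest and FOSL2 (0.884) and FOS (0.889) lowest.

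Among 15 partners and antagonists of AP-1 dimers, 12 were tested, with a median log2 fold change of -0.04, and 1 was called in each direction, where 2.84% of all genes tested were called lower and 0.369% higher. JDP2, a repressor that pairs with JUN proteins, rose from 102 ± 10.6 normalized counts to 198 ± 27.3 (SD, n = 3 each; log2 fold change 0.96, edgeR adjusted p = 0.0230). MAF, a zipper factor of the large Maf group, fell from 23.4 ± 3.75 to 4.01 ± 2.65 (log2 fold change -2.53, edgeR adjusted p = 0.0264). JDP2 lost its call without shControl replicate 2 (adjusted p = 0.113) and without shSQLE replicate 1, 2 or 3 (0.134, 0.121 and 0.0577), and MAF without any library other than shControl replicate 1 (up to 0.124). ATF4, the stress-responsive activator of ATF3, stood at 5262 ± 1238 in shControl and 7004 ± 513 in shSQLE (log2 fold change 0.41, edgeR adjusted p = 0.300). It passed the threshold without shControl replicate 1 (0.62, edgeR adjusted p = 0.000217) and with GC content and length taken out (0.41, 0.00119).

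Other immediate early genes were called in both directions. Of 38 listed, 34 were tested, 6 were called lower and 3 higher, with a median log2 fold change of -0.21, and in 19 the groups did not overlap (13 lower, 6 higher). Over all genes tested, 2.84% were called lower and 0.369% higher, and the groups did not overlap in 22.1%. EGR2, the close relative of EGR1, had 80.8, 76.9 and 88.3 normalized counts in shControl and 12.7, 11.8 and 7.20 in shSQLE. It fell, with no overlap of the groups, by a log2 fold change of -2.93 (standard error 0.25, edgeR adjusted p = 0.00133). The zinc finger factor KLF4 fell from 680 ± 30.3 to 294 ± 14.4 and the clock-linked repressor BHLHE40 from 2293 ± 159 to 1101 ± 78.7 (SD, n = 3 each, log2 fold changes -1.21 and -1.06, edgeR adjusted p = 0.00194 and 0.00267). EGR2, KLF4 and BHLHE40 were called in all 6 fits without 1 library. ZFP36L2, TIPARP and RHOB, named after their values were seen to complete the count, also fell (-0.69, -0.99 and -0.55, edgeR adjusted p = 0.0163, 0.0328 and 0.0336), and among the fits without 1 library were called only in that without shControl replicate 1 (up to 0.121, 0.180 and 0.214).

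The genes of this list that rose were CCN1, CCN2 and MYC, of which CCN2 and MYC are named after their values were seen, because they were few. CCN1, a matricellular protein gene induced by serum, had 2729, 2685 and 2634 normalized counts in shControl and 4316, 4657 and 4102 in shSQLE (log2 fold change 0.70, edgeR adjusted p = 0.00968). Its relative CCN2 had a log2 fold change of 0.52 (edgeR adjusted p = 0.0350), and MYC, a growth-promoting factor, one of 0.67 (edgeR adjusted p = 0.0230). CCN1 lost its call without shControl replicate 2 (0.0599), shSQLE replicate 1 (0.0771) or shSQLE replicate 2 (0.0804), and CCN2 and MYC without any library other than shControl replicate 1 (up to 0.180 and 0.148). The whole list had 14 genes called lower and 3 higher without shControl replicate 1, in the fit that called 18.3% and 15.6% of all genes, and 3 lower and at most 1 higher without any other library.

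The kinases and factors that carry the signal to these genes were not called. Of the 27 genes of MAP kinase signalling and the serum response factors, edgeR called 0, where it called 3.21% of all genes tested. At an unadjusted p under 0.05 there were 0, against 14.7%, and DESeq2 called 0, against 5.15% of its genes. The median log2 fold change was -0.01. Without shControl replicate 1, 4 of the 27 were called lower and 4 higher, in the fit that called 18.3% of all genes lower and 15.6% higher. These are transcript levels, and the activity of the kinases was not measured here.

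Of 16 feedback inhibitors of MAP kinase signalling, edgeR called 3 lower and 0 higher, against 2.84% and 0.369% of all genes tested. The median log2 fold change was -0.10. At an unadjusted p under 0.05 there were 4 lower and 4 higher, against 9.89% and 4.83%. DESeq2 called 4 lower and 1 higher, against 4.01% and 1.14% of its genes. DUSP10, a phosphatase that acts on JNK and p38, fell from 93.7 ± 17.3 to 37.5 ± 4.21 (log2 fold change -1.32, edgeR adjusted p = 0.0166), and DUSP16 and DUSP4 by 0.88 and 0.51 on the log2 scale (edgeR adjusted p = 0.0478 for both). Each lost its call without any library other than shControl replicate 1 (up to 0.108, 0.226 and 0.299), and without that library 5 were called lower and 4 higher (18.3% and 15.6% of all genes). DUSP4 also lost its call with DESeq2 size factors in edgeR (0.0522), with no filter on low counts (0.0640) and with the replicate block (0.109). Both DUSP4 and DUSP16 lost it with library size alone (0.0520 and 0.0661) and with at least 10 counts in every library (0.0511 and 0.0553). SPRY2 had a log2 fold change of -0.60 (edgeR adjusted p = 0.0666), and passed the threshold with DESeq2 (adjusted p = 0.00825), with GC content and length taken out (0.00454) and without shControl replicate 1 (0.000170). DUSP2, SPRY4, DUSP5 and DUSP7, named after their values were seen, lay higher in every shSQLE library without passing the adjusted p. Across the list, the groups did not overlap for 5 genes that were lower and 4 that were higher, against 12.1% and 10.0% of all genes tested.

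Genes known to carry AP-1 sites were called in both directions. Of 25 listed, 22 were tested, 5 were called lower and 1 higher (2.84% and 0.369% of all genes tested), with a median log2 fold change of -0.30. The interstitial collagenase MMP1, the textbook AP-1 target, had 27280, 28230 and 29290 normalized counts in shControl and 11800, 12190 and 12690 in shSQLE, a log2 fold change of -1.21 (standard error 0.10, edgeR adjusted p = 0.000979). The protease PLAU, also under AP-1 control, rose from 3998 ± 102 to 6991 ± 376 (SD, n = 3 each, log2 fold change 0.81, edgeR adjusted p = 0.00464). The cytokine IL6 had a log2 fold change of -3.67 and the collagenase MMP13 one of -2.59 (edgeR adjusted p = 0.000299 and 0.0230). AREG and IL11, named after their values were seen because they complete the 5 lower genes, had log2 fold changes of -1.87 and -0.57 (edgeR adjusted p = 0.0347 and 0.0420). MMP13 and AREG were scarce, at 38.2 ± 17.4 and 30.4 ± 5.64 normalized counts in shControl. In shSQLE they had 6.31 ± 0.487 and 8.26 ± 3.97 (SD, n = 3 each). MMP1, PLAU and IL6 were called in all 6 fits without 1 library, and MMP13, AREG and IL11 only in that without shControl replicate 1 (otherwise up to 0.137, 0.179 and 0.228), where the list had 8 lower and 5 higher (18.3% and 15.6% of all genes).

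Heat shock genes, which handling and other stress can raise, were not called in either direction (0 of 11 by edgeR, 1 at an unadjusted p under 0.05, 0 by DESeq2), with a median log2 fold change of 0.06. The groups did not overlap for 3 of them, all higher in shSQLE, against 10.0% higher and 12.1% lower over all genes tested. The shares over all genes were 3.21% by edgeR, 14.7% at an unadjusted p under 0.05 and 5.15% by DESeq2. HSP90AA1 had the smallest p, with a log2 fold change of 0.41 (edgeR adjusted p = 0.216), and passed the threshold with GC content and length taken out (0.48, adjusted p = 0.00103) and without shControl replicate 1 (0.29, 0.0262). Without shControl replicate 1 the list had 3 called higher (15.6% of all genes), and with GC content and length taken out also 3 (12.1% of all genes). The part of handling or of stress in the changes of ATF3, EGR1 and JUN was not tested.

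**Figure D5:**
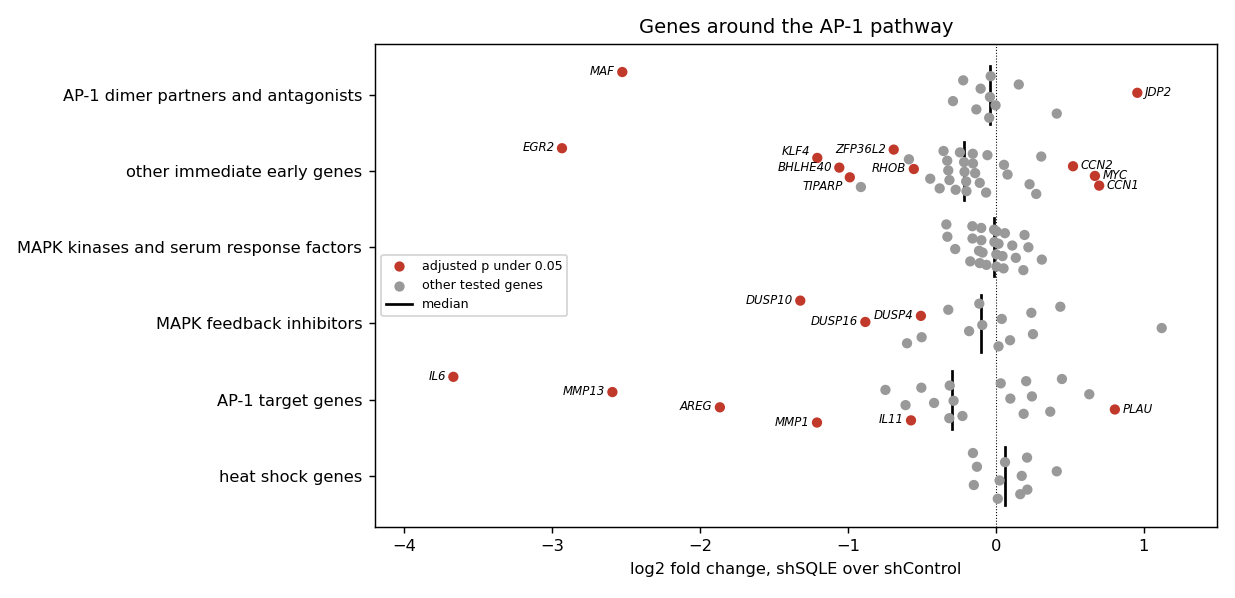
Log2 fold changes of shSQLE over shControl (horizontal axis) for the tested genes of 6 lists, 1 point per gene, red where the adjusted p was under 0.05, with the median of each list as a black line. EGR2 (-2.93) and IL6 (-3.67) lay lowest, JDP2 (0.96) and PLAU (0.81) were called higher, and the MAP kinase list held no called gene.

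The patterns of the 3 called genes over the 6 libraries were set against 9765 genes outside these lists whose normalized counts averaged 100 or more. Pearson's r of log2 CPM, a description over 6 libraries that share their normalization, was highest for JUN with YBX1 (0.998), HMGB2 (0.996) and HNRNPA1 (0.995). ATF3 was most like DERL2 (0.999), SLC33A1 (0.998) and OSBP2 (0.994). EGR1 was most like ABCC3, PTPRN and PARP12 (each 0.998). Because these 9 genes were picked for likeness to called genes over the same 6 libraries, their direction was set by the choice. Their p-values are thus a description and no separate support. HMGB2 rose (log2 fold change 0.77, edgeR adjusted p = 0.00564) and ABCC3, PTPRN and PARP12 fell (-1.48, -2.10 and -0.60, edgeR adjusted p = 0.00276, 0.00279 and 0.0307). The other 5 were not past the adjusted p. Of these, YBX1, DERL2, SLC33A1 and OSBP2 passed it with DESeq2 (adjusted p = 0.000918, 0.0315, 0.0150 and 0.0387) and without shControl replicate 1 (0.00216, 0.00549, 0.00482 and 0.00855). HMGB2 was not called without shSQLE replicate 1 or 2 (0.0607 and 0.0581), and PARP12 was called only without shControl replicate 1 among the fits without 1 library (up to 0.191). Among the 10 genes themselves, r was 0.986 between ATF3 and EGR1, -0.933 between ATF3 and JUN, and 0.914 between FOSL1 and IER3.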

How the data were processed

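Poly(A) RNA of 6 U2OS libraries was read in pairs. Per the labels and the study's methods, the authors used fastp 0.20.0 for trimming, STAR 2.7.9a for alignment to hg38 and featureCounts 2.0 for counting. What they deposited are raw counts, 1 row per gene. The annotation release, the strand setting and the handling of multi-mapping reads are not given in the sources used here. Columns were matched to samples by title.

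R 4.3.3 was used with edgeR 4.0.16 and DESeq2 1.42.0. Of 19937 genes, 12450 passed filterByExpr. The main test was the quasi-likelihood test of edgeR with TMM normalization, shSQLE minus shControl, and Benjamini-Hochberg adjustment over all genes tested, at a threshold of 0.05. The study used DESeq2, which was an alternative here. The standard error is the size of the log2 fold change divided by the square root of F, and the 95% interval takes 4 residual and 3.92 prior degrees of freedom. GC content and length came from GENCODE v44 canonical transcripts on the same build and were taken out as smooth offsets per library (mgcv 1.9.3). The functions were tested on simulated counts. Other alternatives were other size factors and filters, a replicate block, other thresholds and leaving out each library. The 10 genes, the lists, the tests and the rule for named genes (the 10 genes, SQLE, at most 4 genes of each other list, those with the smallest p, and the 3 genes most like each called gene; some genes it allows are not reported here) were chosen with earlier results of these data known.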

Additional observations from a re-analysis of the deposited data

How the results depend on the processing

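ATF3, EGR1, JUN, JUNB, JUND, FOS, FOSB, FOSL1 and FOSL2 had the same direction in every alternative run, while the log2 fold change of IER3 ranged from -0.045 to 0.287 when 1 library was left out and was below 0 without shControl replicate 2 (-0.017) or 3 (-0.045). Leaving out 1 library gave 1 to 4 of the 10 genes called lower and 0 to 3 higher, and 101 to 2300 lower and 4 to 1964 higher among all genes, with the highest counts without shControl replicate 1. In the same fits the ranges were 0 to 3 lower and 0 to 3 higher for AP-1 partners, 3 to 14 and 0 to 3 for other immediate early genes, 0 to 4 and 0 to 4 for MAP kinases and serum response factors, 0 to 5 and 0 to 4 for feedback inhibitors, 2 to 8 and 1 to 5 for AP-1 targets, and 0 lower and 0 to 3 higher for heat shock genes. With GC content and length taken out, calls rose to 4 lower for the 10 genes, 1081 lower and 1508 higher for all genes, 2 higher for partners, 11 lower and 5 higher for other immediate early genes, 5 higher for MAP kinases, 4 higher for feedback inhibitors, 9 lower and 5 higher for targets and 3 higher for heat shock genes. DESeq2 called 556 lower and 158 higher over all genes, 1 feedback inhibitor higher and 2 targets higher. Under the study's fold change rule, 1 of the 10 genes was lower (ATF3) and 0 higher, 10 of all genes were higher, 1 feedback inhibitor was lower, and 0 partners, 0 other immediate early genes and 0 targets were higher. At an adjusted p under 0.1, 113 of all genes and 1 feedback inhibitor were higher. A minimum of 10 counts in every library left 0 partners, 1 feedback inhibitor and 3 targets lower, and library size alone left 1 feedback inhibitor lower. Same-numbered libraries correlated at 0.138, -0.433 and 0.543 in their deviations from the group means, and other pairs of the 2 groups at -0.595 to 0.542. Because deviations within a group of 3 depend on each other, these values cannot show whether the replicate numbers pair the libraries. With the replicate block 362 of all genes were called lower and 34 higher, with 0 of the 10 genes and 1 other immediate early gene higher. The minimum of 10 counts removes genes such as MAF, EGR2, MMP13 and AREG from the test, and for the other shifts the cause was not tested. Outside the fits without 1 library, 313 values of named genes kept their side of the threshold, 18 passed it only under the alternative and 15 only in the fit reported. With 3 libraries a group the precision for scarce genes such as FOS and FOSB is limited.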
